A study of Raphidocelis subcapitata with 72 samples.

Results

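Of the 12181 genes counted in the green alga Raphidocelis subcapitata, 21 met a rule on abundance, change over time and closeness to control. Their relative messenger RNA level was higher at 4 h than at 1 h, by at least a set amount, in every culture of a nanoparticle experiment. That includes the particle-free control. They also lay in a set abundance range and stayed within a set distance of control in both particle cultures at either hour. The genes were chosen on measured values. Counts were scaled to CPM (counts per 1000000 of the library size after adjustment by a TMM factor for each library). The group value was log2(group mean CPM + 1). A gene was taken when the mean of its 6 group means was at least 5 and below 1000 CPM, when its group value was at least 0.6 higher at 4 h than at 1 h in control, nFe3O4 and nZVI cultures alike, and when each particle culture stood strictly within 0.7 of control at both hours. That difference, 4 h minus 1 h on this log2 scale, is called the rise below. The rises and the differences from control are therefore a description of how the genes were picked. Where calls of a test run over all genes are counted for the members below, the count is a description too, and nothing is read from it against the share of all genes beside it.

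The study asked how this freshwater alga, widely used in toxicity tests, changes its transcript levels after iron nanoparticles are added. The libraries come from strain ATCC 22662, grown to mid-log phase in high salt medium under constant light, and cover 3 cultures at 1 h and 4 h. The control cultures received no particles, the nZVI cultures 100 mg/L of nanoscale zero-valent iron, and the nFe3O4 cultures 100 mg/L of magnetite nanoparticles. There were 3 libraries in each group except nFe3O4 at 1 h, which had 2, because the columns of its replicate 2 were exact copies of 1 lane of its replicate 1 and were left out. Every culture shared the strain, the medium, the light and the pre-culture. Within a particle culture, time since the particles were added ran together with time in culture. The control cultures, sampled at the same hours, had time in culture without particles. Whether replicates came from separate inocula is not given in the sources used here, so error terms measure the spread between these libraries.

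Library totals ran from 26322767 to 43364641 counts, and the 21 genes together took 0.178% to 0.239% of a library's counts at 1 h and 0.269% to 0.359% at 4 h. Groups are named as the count table heads them. Over 49 genes shared with the authors' transformed table, the 12 libraries headed control or nZVI each matched best a library of the other name, and the 5 nFe3O4 libraries matched their own. The names control and nZVI are thus exchanged between the deposited tables, and "control" and "nZVI" below mean the libraries labelled so in the count table. A rise in every culture does not depend on which name is right, but a statement about either one by name does: with the names exchanged the rule picked 31 genes, all 21 among them.

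As background, the level of a transcript follows from how fast it is made and how fast it decays. A CPM is relative to the adjusted size of its library, so it gives no amount of RNA per cell. Green algae adjust many transcripts within hours to light, nutrients, cell density and the time since transfer, so a particle experiment needs particle-free cultures sampled at the same hours. Zero-valent iron oxidises in water and releases ferrous iron, whereas magnetite is a mixed iron oxide. Iron is a cofactor of photosynthetic electron carriers and, in excess, a source of reactive oxygen. The files do not pair the locus numbers with gene names or products, so no function is given for any of the 21.

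Few genes in range rose in all 3 cultures, and most of those differed between cultures by more than the limit. In the abundance range were 7594 genes, of which 552 rose by at least 0.6 in control, 446 in nFe3O4 and 396 in nZVI. The rise was met in all 3 cultures by 103 genes at any abundance and by 69 in range. The limit between cultures then removed 48 of the 69 and left the 21. Of the 48 removed, 39 had at least 1 particle culture below control by the limit and 9 had one above it. They passed the limit at 1 h only in 23 genes, at 4 h only in 3 and at both hours in 22. The mirrored rule for falls took more genes, with 114 in range falling by at least 0.6 everywhere and 92 of them inside the limit between cultures.

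**Figure D1:**
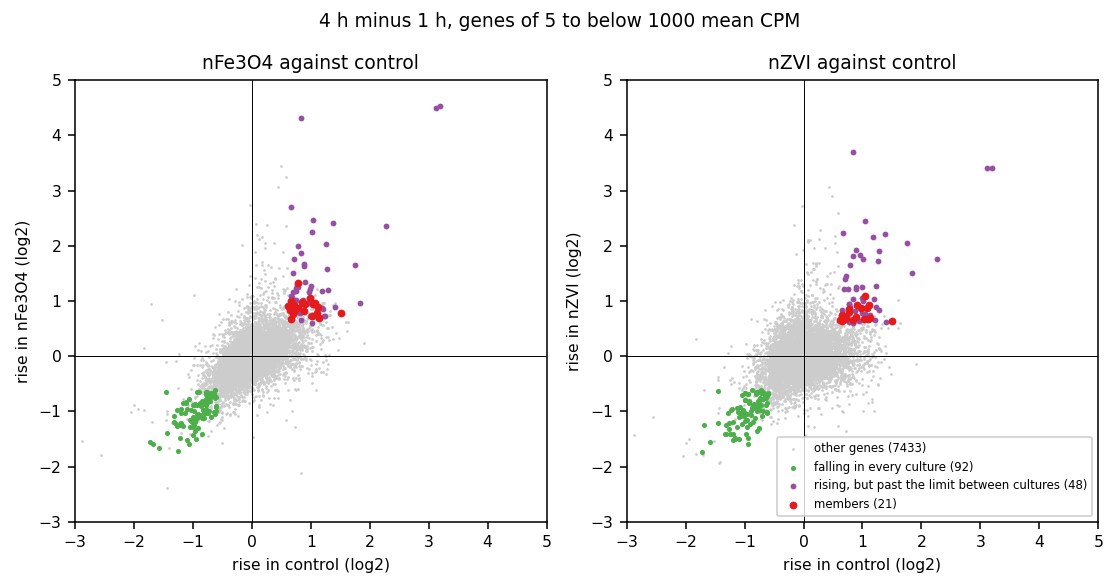
Rise from 1 h to 4 h, as the difference of log2(group mean CPM + 1), for the 7594 genes in the abundance range, with control on the x axis and nFe3O4 (left) or nZVI (right) on the y axis, 1 point per gene. The 21 members lie between 0.61 and 1.51 in control, while the 48 rising genes past the limit between cultures reach further up in the particle cultures, and the 92 genes of the mirrored rule lie at the lower left.

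Some members lay close to the edges of the rule. RSUB_04805 had the lowest mean inside the range, 5.06 CPM, and 13 genes met every other bound with a lower mean, the nearest being RSUB_11219 at 4.66 CPM. RSUB_11998 had the highest mean inside, 659.9 CPM, and 6 genes met every other bound at 1000 CPM or more, the nearest being RSUB_06235 at 1419.8 CPM. RSUB_06478 had the smallest rise inside, 0.61, and RSUB_04022 the nearest below, 0.5953. RSUB_09101 came closest to the limit between cultures, with a difference of 0.68, and RSUB_11040 lay just past it at 0.76.

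In each culture the typical member nearly doubled or fell somewhat short of it. The median rise was 0.84 in control, 0.87 in nFe3O4 and 0.71 in nZVI, beside -0.0023, 0.0044 and -0.020 over all genes in range. In untransformed CPM the median ratio of 4 h to 1 h was 1.90, 1.90 and 1.68. The rise was largest in nFe3O4 for 13 of the 21, in control for 7 and in nZVI for 1, and smallest in nZVI for 11, in control for 8 and in nFe3O4 for 2. The spread between the 3 rises of a gene had a median of 0.20, from 0.034 to 0.88. The rule asked for a rise in every culture and bounded the differences at both hours, so unequal rises were limited before any test. The edgeR quasi-likelihood test with Benjamini-Hochberg adjustment called no member different in rise between nFe3O4 and control, between nZVI and control or between nZVI and nFe3O4. At an unadjusted p under 0.05 it had 1, 1 and 0. DESeq2 called 0 members in each, beside 460, 1382 and 104 of all 11841 genes. Over the 11841 genes tested, edgeR called 1.19% with a higher rise in nFe3O4 than in control and 0.777% with a lower one. Between nZVI and control the shares were 4.59% and 4.69%, and between nZVI and nFe3O4 they were 0.296% and 0.0929%. The member at an unadjusted p under 0.05 in both comparisons with control was RSUB_01725. The share of all genes at that unadjusted threshold was not counted, so nothing is read from it. A missed threshold does not show that the rises were equal.

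**Figure D2:**
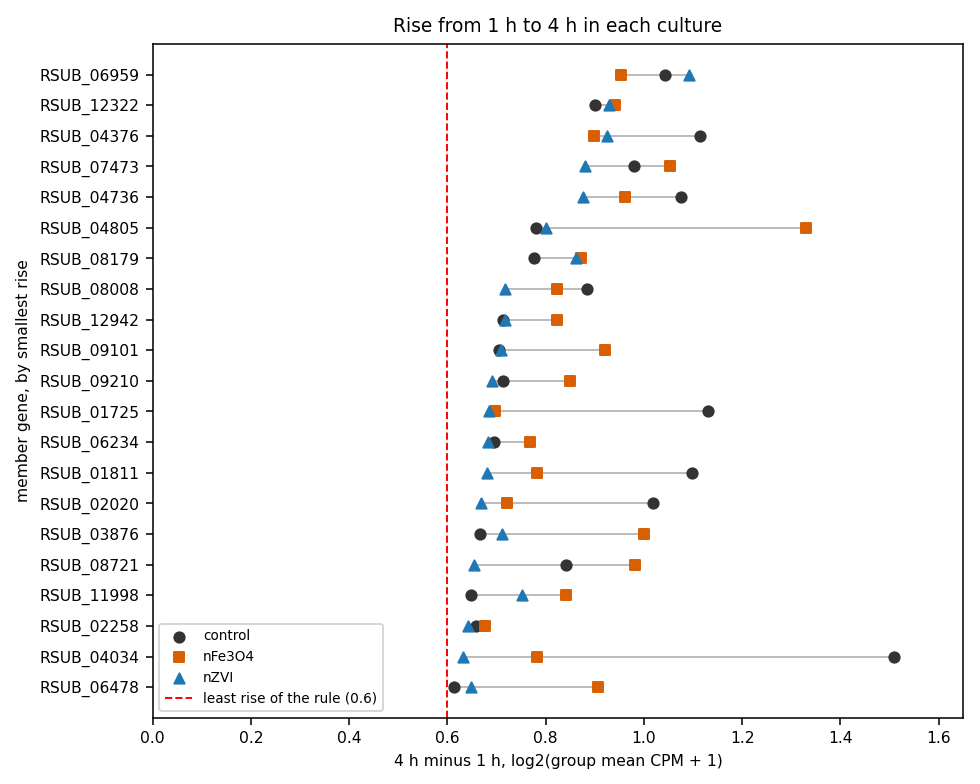
Rise from 1 h to 4 h of each of the 21 genes on the log2(group mean CPM + 1) scale, with 1 symbol per culture, a grey line over the span of the 3 and a dashed line at the rule's 0.6. Most spans are short, as for RSUB_12322 (0.90 to 0.94), and the widest belong to RSUB_04034 (0.63 to 1.51) and RSUB_04805 (0.78 to 1.33).

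Read library by library, the hours were fully apart for all members in control and for fewer in the particle cultures. Every 4 h library lay above every 1 h library of the same culture for 21 of 21 members in control, where 20.5% of all tested genes did so. In nFe3O4 this held for 15 members, beside 18.2% of all genes, and in nZVI for 19, beside 15.9%. In all 3 cultures at once it held for 15, beside 2.9% of all genes. For 11 members even the lowest of the 9 libraries at 4 h lay above the highest of the 8 at 1 h whatever the culture, which 0.997% of all genes did. These 11 were RSUB_12322, RSUB_04376, RSUB_04736, RSUB_04805, RSUB_08008, RSUB_12942, RSUB_01725, RSUB_06234, RSUB_03876, RSUB_08721 and RSUB_06478. Since the rule set the group means apart, these counts are a description and say nothing about the members beyond it. The libraries overlapped in nFe3O4 for RSUB_06959, RSUB_08179, RSUB_09210, RSUB_01811, RSUB_02020 and RSUB_04034, and in nZVI for RSUB_08179 and RSUB_04034.

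The edgeR quasi-likelihood test over all genes, likewise a description for genes chosen on this contrast, called 18 members higher at 4 h in control, beside 8.52% of all genes. It called 15 in nFe3O4, beside 5.33%, and 16 in nZVI, beside 8.28%. DESeq2 called 19, 15 and 18, beside 1157, 789 and 1100 of all 11841 genes. No member was called lower by either tool, beside 8.61% of all genes in control, 7.19% in nFe3O4 and 9.54% in nZVI. The 15 called in nFe3O4 were called in the other two cultures as well, and they are the same 15 whose libraries did not overlap in any culture, beside 1.21% of all genes called higher in every culture.

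**Figure D3:**
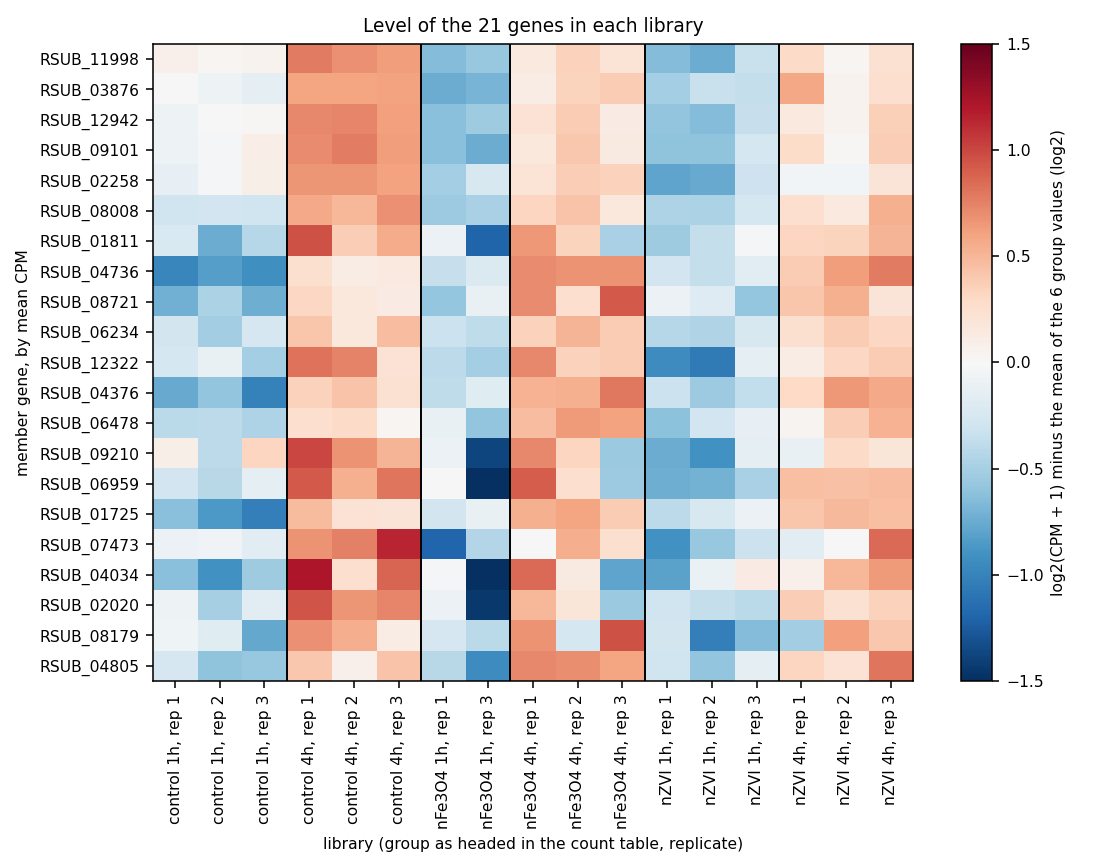
Level of the 21 genes (rows, by mean CPM) in the 17 libraries (columns, by group and replicate), as log2(CPM + 1) minus the mean of the gene's 6 group values, blue for below and red for above it. The 4 h columns are mostly red and the 1 h columns mostly blue in every culture, with the control columns above the others in the upper rows. Replicate 3 of nFe3O4 is pale or blue at 4 h in 5 of the rows of genes up to 100 CPM.

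By abundance, over 100 CPM on average were 5 of the 21 (23.8%, beside 10.4% of the genes in range), from 20 to 100 CPM were 6 (28.6%, beside 35.6%), and under 20 CPM were 10 (47.6%, beside 54.1%). The 5 abundant genes carried most of the summed level. Summed over the 21, the level went from 2389 ± 24.1 to 3929 ± 134 CPM in control (SD, n = 3 at each hour), from 1649 ± 3.82 (n = 2) to 3040.0 ± 175 (n = 3) in nFe3O4 and from 1783 ± 199 to 2961 ± 259 in nZVI (n = 3 at each hour). Every 4 h library exceeded every 1 h library in this sum, and the control libraries lay above those of both particle cultures at each hour. Without the 5 abundant genes the sum was nearly level between cultures at 1 h, at 265, 263 and 278 CPM for control, nFe3O4 and nZVI, and 527, 493 and 479.9 CPM at 4 h.

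RSUB_11998 was the most abundant. Library values are given in the order of the replicates, which for nFe3O4 at 1 h are 1 and 3. Its control libraries read 664, 639 and 649 CPM at 1 h and 1081, 1012 and 969 CPM at 4 h. The nFe3O4 libraries read 400.3 and 424 CPM and then 695, 797 and 726 CPM, and the nZVI libraries 398, 375 and 497 CPM and then 765, 639.8 and 736 CPM. No 4 h library of a culture overlapped its 1 h libraries, and every particle library at 4 h stood below every control library of that hour. The mean ratio of 4 h to 1 h was 1.57 in control, 1.79 in nFe3O4 and 1.69 in nZVI.

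RSUB_03876 rose furthest of the abundant genes in nFe3O4. Control libraries went from 507, 485 and 467 CPM to 771, 769 and 779 CPM, with an SD of 5.49 CPM at the later hour. In nFe3O4 they went from 306 and 315 CPM to 552, 646 and 668 CPM, a ratio of 2.003, and in nZVI from 358, 405 and 399 CPM to 767, 532 and 607 CPM. The 4 h libraries of nZVI were the most scattered, replicate 1 being about as high as control and the other two below it.

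RSUB_12942 and RSUB_09101 moved nearly in step. RSUB_12942 went from 464, 492 and 496 CPM to 813, 817 and 755 CPM in control, from 318 and 339 CPM to 569.7, 640.0 and 536 CPM in nFe3O4 and from 324, 313 and 385 CPM to 543, 509 and 632 CPM in nZVI. RSUB_09101 went from 340.2, 352 and 385 CPM to 591, 612 and 556 CPM in control, from 233 and 213 CPM to 399.8, 475 and 395 CPM in nFe3O4 and from 237, 235 and 300.4 CPM to 435, 365 and 465 CPM in nZVI. For both genes the control libraries at 4 h were the highest of all. The particle cultures overlapped each other at 4 h for both genes and at 1 h for RSUB_12942, whereas for RSUB_09101 the nZVI libraries lay just above the nFe3O4 libraries at 1 h.

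RSUB_02258 had the most even rise of all 21 genes, 0.66 in control, 0.68 in nFe3O4 and 0.64 in nZVI. Its libraries read 134, 143 and 154 CPM at 1 h and 231, 231 and 221 CPM at 4 h in control, 102 and 123 CPM and 168, 188 and 185 CPM in nFe3O4, and 83.5, 85.7 and 117 CPM and 141, 142 and 166 CPM in nZVI. Mean levels were lowest in nZVI, where 2 of the 4 h libraries lay within the range of control at 1 h and the other just above it.

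Among the abundant genes, 3 also tracked one another between libraries of a group, a property that the rule did not use. Taking the log2 ratio of 2 genes in each library and its deviation from the group mean, the SD within groups was 0.071 for RSUB_12942 and RSUB_09101. It was 0.082 for RSUB_12942 and RSUB_11998 and 0.086 for RSUB_09101 and RSUB_11998. Such closeness was not confined to these 3 genes. It was 0.076 for RSUB_12942 and RSUB_08008, a gene under 100 CPM, and 0.093 for RSUB_12942 and RSUB_02258. The level of RSUB_12942 was 1.25 to 1.59 times that of RSUB_09101 over the 17 libraries, on the CPM scale and without correction for length. Over all 309291 pairs of genes of 100 to 1000 CPM the median SD was 0.176, and 3.56% of pairs were at or below 0.086. The 10 pairs among the 5 abundant members had a median of 0.114. These pairs share libraries and depth and were picked out for their low values, so the numbers are a description.

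Of the 6 members between 20 and 100 CPM, RSUB_08008 was steady. Control libraries read 66.97, 67.4 and 66.9 CPM at 1 h and 123, 117 and 134 CPM at 4 h, nFe3O4 libraries 56.5 and 58.5 CPM and 103, 112 and 92.6 CPM, and nZVI libraries 59.6, 58.997 and 68.8 CPM and 98.9, 91.6 and 119.8 CPM. All 9 of the 4 h libraries lay above all 8 of the 1 h libraries. RSUB_06234 was as even, with rises of 0.70 in control, 0.77 in nFe3O4 and 0.68 in nZVI and group means that differed by at most 0.06 from control on the log2 scale. Its means were 19.6 ± 2.08, 19.4 ± 0.574 and 19.2 ± 1.73 CPM at 1 h for control, nFe3O4 and nZVI (SD, n = 3, 2 and 3), and 32.3 ± 3.65, 33.8 ± 2.097 and 31.5 ± 1.58 CPM at 4 h (n = 3 each). RSUB_06234 was thus the member whose level depended least on the culture.

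RSUB_04736 stood the other way round from the abundant genes, lower in control than in either particle culture. Control libraries read 20.5, 22.99 and 21.5 CPM at 1 h and 49.3, 44.9 and 46.03 CPM at 4 h, nFe3O4 libraries 32.5 and 35.6 CPM and 68.5, 66.6 and 66.5 CPM, and nZVI libraries 33.8, 32.1 and 36.6 CPM and 54.4, 64.6 and 71.6 CPM. Control lay below both particle cultures with no overlap at 1 h and at 4 h. It had the lowest spread between replicates of the 21, an SD of 0.106 on the log2 scale.

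RSUB_12322 rose by nearly the same amount in every culture, 0.90 in control, 0.94 in nFe3O4 and 0.93 in nZVI. Its control libraries read 18.4, 20.6 and 15.4 CPM and then 40.1, 38.1 and 26.1 CPM, its nFe3O4 libraries 16.7 and 15.4 CPM and then 37.3, 28.6 and 29.3 CPM, and its nZVI libraries 11.1, 10.2 and 20.1 CPM and then 24.1, 27.99 and 29.4 CPM. Replicates 1 and 2 of nZVI at 1 h were the lowest libraries of all, below every library of the other groups.

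RSUB_08721 lay above control in both particle cultures by its means, which were 16.2 ± 1.79, 20.3 ± 4.82 and 21.3 ± 3.81 CPM at 1 h and 29.8 ± 2.198, 41.1 ± 9.53 and 34.03 ± 4.09 CPM at 4 h for control, nFe3O4 and nZVI (n as above). The libraries of the 3 cultures overlapped at each hour. RSUB_01811, the remaining gene of this class at 71.2 CPM, scattered between replicates and is described with others that did so.

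Among the 10 members under 20 CPM, RSUB_04376 and RSUB_01725 resembled RSUB_04736. RSUB_04376 read 9.36, 10.6 and 7.66 CPM at 1 h and 21.3, 22.6 and 19.5 CPM at 4 h in control, 12.4 and 14.4 CPM and 24.1, 24.4 and 29.3 CPM in nFe3O4, and 12.95, 10.99 and 12.5 CPM and 20.6, 26.4 and 24.9 CPM in nZVI. RSUB_01725 read 6.65, 5.52 and 4.82 CPM and 15.5, 12.7 and 12.5 CPM in control, 8.804 and 9.92 CPM and 16.1, 16.9 and 14.4 CPM in nFe3O4, and 7.99, 8.99 and 10.2 CPM and 14.7, 15.6 and 15.1 CPM in nZVI. For both, control lay below every particle library at 1 h and overlapped with at least 1 particle culture at 4 h. The rise was largest in control for both, at 1.11 and 1.13, against 0.90 and 0.70 in nFe3O4 and 0.92 and 0.69 in nZVI.

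RSUB_07473 lay below control in both particle cultures. It read 9.32, 9.56 and 8.73 CPM at 1 h and 16.5, 17.6 and 23.2 CPM at 4 h in control, 3.804 and 7.07 CPM and 10.04, 15.01 and 12.01 CPM in nFe3O4, and 4.86, 6.399 and 7.796 CPM and 8.81, 9.96 and 18.8 CPM in nZVI. Replicate 3 of nZVI at 4 h was as high as control, and the rest of the particle libraries were lower than control at the same hour. RSUB_06478 had means of 10.1 ± 0.305, 10.8 ± 2.78 and 10.9 ± 2.02 CPM at 1 h and 16.04 ± 1.61, 21.2 ± 1.45 and 17.6 ± 3.09 CPM at 4 h, with nFe3O4 the highest at the later hour.

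The pair at the lower abundance limit had few counts behind them. RSUB_04805 read 3.79, 2.76 and 2.84 CPM and 6.57, 5.01 and 6.702 CPM in control, 3.26 and 1.96 CPM and 8.41, 8.27 and 7.58 CPM in nFe3O4, and 3.63, 2.79 and 4.19 CPM and 6.13, 5.65 and 8.94 CPM in nZVI. Its rise in nFe3O4, 1.33, was the largest of the 21 in that culture. RSUB_08179 read 4.56, 4.11 and 2.41 CPM and 8.33, 7.497 and 5.28 CPM in control, 3.86 and 3.38 CPM and 8.303, 3.83 and 10.2 CPM in nFe3O4, and 3.79, 1.86 and 2.71 CPM and 3.05, 7.903 and 6.71 CPM in nZVI. Its groups overlapped in both particle cultures, where replicate 2 of nFe3O4 and replicate 1 of nZVI stayed at 4 h near the 1 h level, and its lowest library held 66 counts, the fewest of any member.

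With the libraries named as the count table heads them, the abundant genes were lower with particles than in control. The rarer genes lay on both sides of it. Below control in both particle cultures at both hours were 11 of the 21 (52.4%, beside 29.7% of genes in range). They were all 5 abundant genes with RSUB_06959, RSUB_12322, RSUB_07473, RSUB_08008, RSUB_09210 and RSUB_02020. Above control throughout were 5 (23.8%, beside 31.2%), namely RSUB_04736, RSUB_04376, RSUB_01725, RSUB_08721 and RSUB_06478. The other 5 were on different sides in different groups, beside 39% of genes in range. These sides turn on the names: with control and nZVI exchanged, 0 of the 21 lay below control throughout (beside 16.7% of genes in range) and 4 lay above it (19%, beside 14.7%). RSUB_11998 would then differ from control by -0.040 at 1 h and 0.051 at 4 h in nFe3O4, and by 0.62 and 0.52 in nZVI, on the log2 scale. RSUB_04736 would differ by -0.0061 and 0.080 in nFe3O4 and by -0.63 and -0.43 in nZVI. The rule held these differences within 0.7, so they too are a description. With the names as headed, the nFe3O4 mean of RSUB_11998 was 0.633 of control at 1 h and 0.724 at 4 h, and the nZVI mean 0.651 and 0.699. For RSUB_04736 the nFe3O4 mean was 1.57 times control at 1 h and 1.44 times at 4 h, and the nZVI mean 1.58 and 1.36 times.

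The rule bounded these differences, which limits how many members could be called, so the counts that follow are not compared with the shares of all genes beside them. In the edgeR test over all genes, 3 members were called higher in nFe3O4 than in control at 1 h, beside 15.3% of all genes, and 4 lower, beside 13.6%. The higher ones were RSUB_04376, RSUB_04736 and RSUB_01725, and the lower ones RSUB_12942, RSUB_09101, RSUB_03876 and RSUB_11998. In nZVI at 1 h the same 3 were called higher, beside 21.2%, and the same 4 with RSUB_02258 lower, beside 20.2%. At 4 h RSUB_04736 was the member called higher in nFe3O4, beside 12.3%, and in nZVI, beside 10.5%. Called lower at 4 h were the same 4 in nFe3O4, beside 10.6%, and RSUB_12942, RSUB_09101, RSUB_11998 and RSUB_02258 in nZVI, beside 9.39%. DESeq2 called 7 lower in nFe3O4 at 4 h and otherwise as many as edgeR. Over all 11841 genes DESeq2 called 3530 in nFe3O4 and 4964 in nZVI against control at 1 h, and 2913 and 2585 at 4 h. Between nZVI and nFe3O4 edgeR called 0 members at either hour, with 1 at an unadjusted p under 0.05 at each hour. The share of all genes at that unadjusted threshold was not counted. DESeq2 called 0 members, beside 625 of all genes at 1 h and 26 at 4 h. Of all genes, edgeR called 1.21% higher and 1.87% lower in nZVI at 1 h, and 0% and 0.00845% at 4 h. Both particles were set against the same control libraries, so the 2 sets of differences are not separate evidence.

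**Figure D4:**
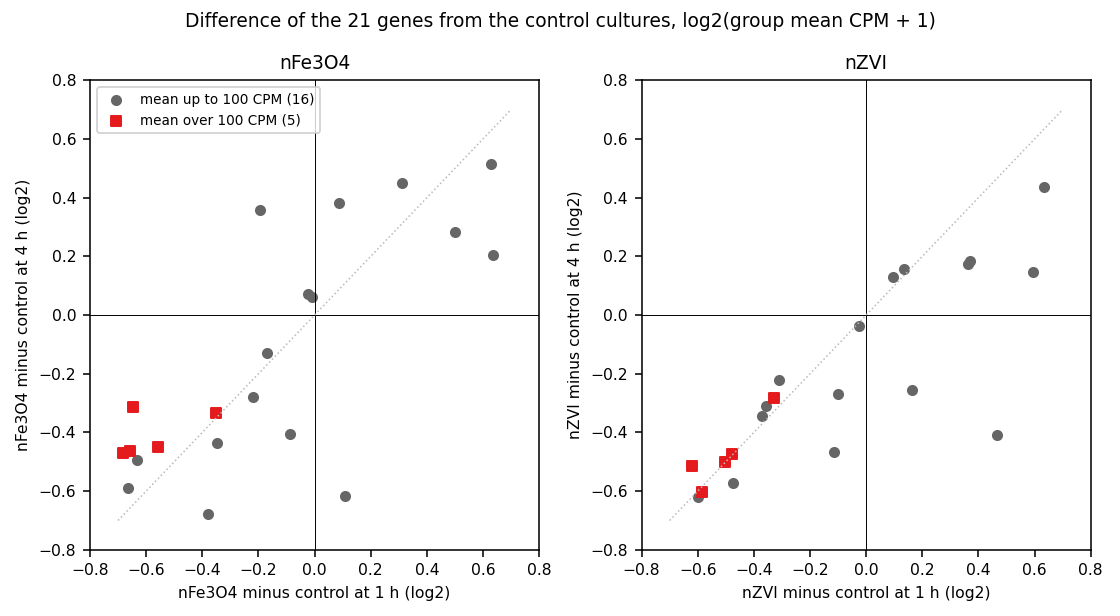
Difference of each of the 21 genes from control at 1 h (x axis) and 4 h (y axis), on the log2(group mean CPM + 1) scale, for nFe3O4 (left) and nZVI (right). With the libraries named as in the count table, the 5 genes over 100 CPM (squares) lie at the lower left in both panels, between -0.68 and -0.28, and the genes up to 100 CPM (circles) lie on both sides of 0.

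By the median, members scattered between replicates more than the genes in range. The rule set no limit on this scatter, but it chose on means of 2 or 3 libraries, which scatter moves. Whether that choice favoured scattered genes was not tested. The SD of log2(CPM + 1) within groups had a median of 0.213 over the 21, from 0.106 to 0.626, beside 0.160 over the genes in range. For the 5 abundant genes it was 0.134, beside 0.125 for all genes of 100 to 1000 CPM. For the 16 up to 100 CPM it was 0.263, beside 0.164.

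In 5 of the genes up to 100 CPM, picked out here after their values were seen, 2 replicates of nFe3O4 stood apart. Replicate 1 of that culture was at least 2-fold higher than replicate 3 at both hours, which holds for 23.8% of the members and 4.79% of the genes in range, while the opposite held for no member and 0.0132% of the range. For RSUB_06959 the nFe3O4 libraries read 10.7 and 2.49 CPM at 1 h and 21.1, 13.1 and 7.04 CPM at 4 h, for RSUB_04034 7.77 and 2.16 CPM and 14.9, 8.73 and 4.13 CPM. For RSUB_09210 they read 11.8 and 4.24 CPM and 21.5, 16.1 and 8.26 CPM, and for RSUB_02020 6.58 and 1.96 CPM and 10.4, 8.16 and 4.51 CPM. For RSUB_01811 they read 63.6 and 28.9 CPM and 107, 85.6 and 47.99 CPM. Within 1 replicate number the level was still higher at 4 h: in replicate 1 by 1.97, 1.82, 1.69, 1.58 and 1.92 times for RSUB_06959, RSUB_09210, RSUB_01811, RSUB_02020 and RSUB_04034, and in replicate 3 by 2.82, 1.95, 1.66, 2.30 and 1.92 times. For all 5, replicate 3 at 4 h lay below replicate 1 at 1 h, so the hours overlapped.

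**Figure D5:**
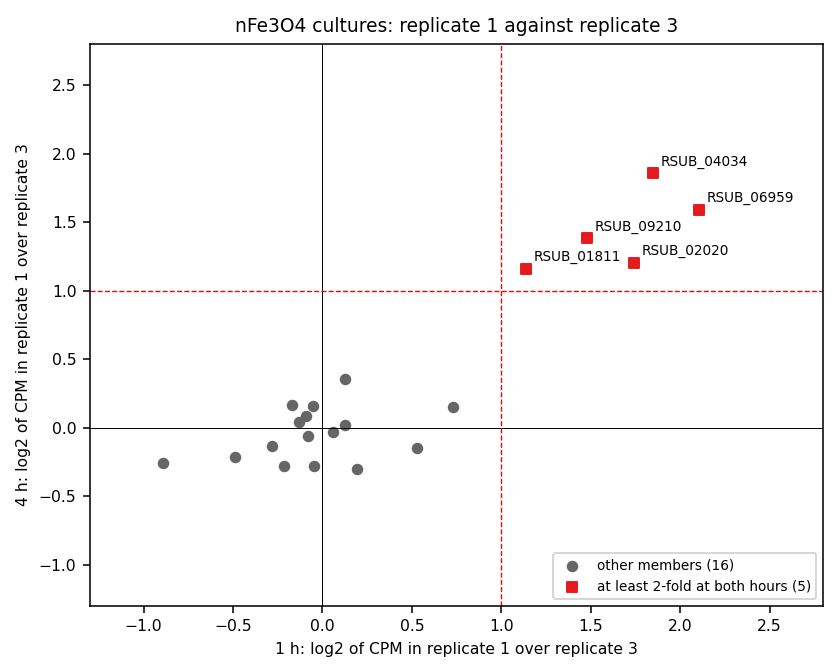
Log2 ratio of CPM in replicate 1 over replicate 3 of the nFe3O4 cultures at 1 h (x axis) and 4 h (y axis) for the 21 genes, with dashed lines at a 2-fold ratio. The 5 named genes (squares) lie past both lines, at ratios of 2.20 to 4.31 at 1 h and 2.24 to 3.62 at 4 h, and the other 16 (circles) lie around 0.

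In control and nZVI, replicate 3 was the lowest library at both hours for none of these 5 genes. RSUB_06959 read 8.67, 7.81 and 9.598 CPM and then 21.3, 16.004 and 19.6 CPM in control and 6.06, 6.201 and 7.43 CPM and then 15.1, 14.99 and 15.2 CPM in nZVI, with no overlap between the hours. RSUB_04034 read 4.76, 3.73 and 5.12 CPM and then 19.5, 9.52 and 15.2 CPM in control, the largest rise of any member, 1.51, and 4.09, 7.24 and 8.63 CPM and then 8.31, 11.5 and 12.8 CPM in nZVI, where the hours overlapped. RSUB_09210 had means of 12.99 ± 3.32 and 21.9 ± 4.07 CPM in control and 8.24 ± 2.69 and 13.9 ± 2.05 CPM in nZVI (SD, n = 3). RSUB_02020 had 5.86 ± 1.01 and 12.9 ± 1.41 CPM in control and 5.33 ± 0.235 and 9.06 ± 0.509 CPM in nZVI, and RSUB_01811 49.3 ± 8.95 and 107 ± 23.03 CPM in control and 55.3 ± 10.3 and 89.2 ± 6.44 CPM in nZVI.

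Genes picked without some libraries were also read in the libraries left out. The rule and its limits were set with earlier results of all these data known, so these counts are a description and no separate evidence. The rule was applied without replicate 1 of every group, then without replicate 2 and then without replicate 3, and the genes picked were read in the libraries left out. Without replicate 1 it picked 12 genes, 10 of them members, and all 12 were higher at 4 h than at 1 h in the left-out libraries of control, of nFe3O4 and of nZVI, beside 50.7%, 49.5% and 46.7% of the genes in range. Without replicate 2 it picked 19, 14 of them members, and 19 of 19 were higher in control and in nZVI, beside 51.3% and 50.5%. Without replicate 3 it picked 20, 11 of them members, and 19 were higher in control, 20 in nFe3O4 and 18 in nZVI, beside 47.7%, 49.2% and 48.3%. The median rise in the left-out libraries ran from 0.62 to 0.93, while the median over the genes in range ran from -0.029 to 0.012. Not all picked genes kept a rise of 0.6: in nZVI replicate 3, 11 of 20 did, and in control replicate 1, 11 of 12. Scaling factors came from all 17 libraries, and without replicate 1 or 3 the nFe3O4 group at 1 h was a single library.

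By locus number the members were scattered, the closest pair being 69 numbers apart. Of the 40 genes numbered next to a member, 20 were in the abundance range, with median rises of 0.075, 0.066 and -0.026 in control, nFe3O4 and nZVI, beside -0.0037, 0.0036 and -0.021 for the other genes in range. Of the 20, 7 had a positive rise in all 3 cultures (35%, beside 23%). Among the 20, RSUB_02259, next to RSUB_02258, met the least rise in every culture. It rose by 1.26, 2.04 and 1.73 at a mean of 12.002 CPM and missed the list through the limit between cultures. RSUB_06235, the gene just past the upper abundance edge, is numbered next to RSUB_06234 and rose by 0.61, 0.65 and 0.71 from 1 h means of 1289, 1018 and 1010.1 CPM. How reads were assigned to genes, and whether by strand, is not given here, so reads shared between overlapping neighbours cannot be told apart from their own.

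All 21 members are listed with a positive log2 fold change in the authors' deposited table of 4 h against 1 h, from 0.45 to 1.16 with a median of 0.84. That table lists 5408 genes, 50.8% of them positive, and holds 43.1% of the genes in the count table. Its name gives the 2 hours and no culture. It was made from the same cultures, so it is no independent evidence of the rise. Every member entry in the authors' deposited tables has an adjusted p under 0.05, so these tables may list only genes past a cut. For 1 h, 14 members are in the authors' deposited table that sets nZVI against control, 9 positive and 5 negative. That deposited table of the authors holds 59% of the genes in the count table, and 49% of its entries are positive. In the authors' deposited table RSUB_11998 is at 0.65 and RSUB_04736 at -0.64, while the count table gives -0.62 and 0.63 for the libraries so labelled. For 4 h the authors' deposited table for this pair has 12 members, 9 positive and 3 negative, with RSUB_11998 at 0.54 and RSUB_04736 at -0.42. It holds 45% of the genes in the count table, 52% of its entries being positive. The signs are opposite for these genes, as with the exchanged names described above. In the authors' deposited tables of nFe3O4 against control, 5 members are listed at 1 h, 2 positive and 3 negative, and 1 at 4 h, positive, beside 36.7% and 12.7% of the genes in the count table. The authors' deposited tables of nZVI against nFe3O4 list 13 members at 1 h, 8 positive and 5 negative, and 15 at 4 h, 11 positive and 4 negative, beside 53.1% and 46.4%. For the libraries so labelled in the count table, edgeR called 0 members in this pair, and 7 at 1 h and 5 at 4 h between nFe3O4 and the libraries headed control. The authors' tables come from another fit, and whether it took lanes or libraries as replicates was not checked. The listed and the called counts are therefore not like for like.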

How the data were processed

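Poly(A) RNA went into strand-specific libraries that were read from both ends, per the labels' protocols. The authors deposited whole read counts per gene in 72 lane columns, not normalized, per the file headers. The submitters' processing notes name HISAT2, SAMtools, Trimmomatic, bcl2fastq, bedtools 2.27.1, DESeq and DESeq2, with no roles. No source used here gives the build, the annotation or the read assignment. Of lane counts from 1 to 20, 63.5% were even, so a fragment may count as 2 reads.

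The 4 lane columns of each library were summed. The 4 copied columns were left out, which leaves 68 columns and 17 libraries, with 2 in nFe3O4 at 1 h and 3 in each other group. Between lanes of a library, chi-square divided by its degrees of freedom was 2.40 to 3.57. CPM used TMM-scaled library sizes, with 1 CPM added before log2. All genes were tested in 1 model of 6 group means by edgeR's quasi-likelihood test (edgeR 4.0.16, limma 3.58.1, R 4.3.3), with a low-count filter that removed 340 of 12181 genes and Benjamini-Hochberg adjustment over the other 11841 at 0.05. All 21 members passed that filter. DESeq2 1.42.0 was an alternative. The fit was tested on simulated counts.

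The members, the lists and the rule for named genes were chosen with earlier results of these data known. The rule for named genes takes those with the largest smallest rise, the highest mean, the most even and most uneven rises and the largest replicate spread, with the genes nearest each bound. The other members are described as well, so that each is accounted for, as are the 5 genes with unequal nFe3O4 replicates and the neighbour RSUB_02259, picked after their values were seen.

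The authors also deposited 7 comparison tables with a log2 fold change and a p-value per gene, and a log2-scale transformed table of 50 genes, none of them a member, compared with the counts by Pearson's r on log2(CPM + 0.5). The files do not pair locus numbers with gene names, and 0 members were matched to one. Gene groups and sequences are not used here.

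Replicate numbers are shared between groups. The labels have each culture sampled at both hours but do not say that the numbers follow a flask, so the model had no block. Of 8 same-numbered pairs 5 correlated above 0.1, so the model may leave out a pairing by number. Calls with a block on culture and replicate number are given below as an alternative.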

Additional observations from a re-analysis of the deposited data

How the results depend on the processing

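The number of genes picked, 21, depended on the limits. A least rise of 0.5, 0.8 or 1.0 gave 39, 5 or 0 genes, a culture limit of 0.5 or 1.0 gave 10 or 42, and a lowest mean of 20 CPM or none gave 11 or 34. Leaving out 1 library at a time gave 13 (without nFe3O4 1 h replicate 1) to 29 genes (without nZVI 1 h replicate 3), of which 12 and 16 were members. RSUB_12942, RSUB_08008, RSUB_04736, RSUB_06234 and RSUB_04376 were picked in all 17 of these repeats, RSUB_09210 in 8 and RSUB_04034 in 10. Other settings gave 22 genes with RLE size factors (19 of them members), 15 with library totals (10), 14 with lane 1 alone (11), 25 with the copied library kept (20), 23 with a pseudocount of 0.5 CPM (19), 16 with 5 CPM (12) and 25 with group medians (16). Library totals without TMM shifted the rise of the median gene in range by -0.096, -0.13 and -0.11 in control, nFe3O4 and nZVI, and all 21 members kept a positive rise in each even without correcting for that shift.

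Over the libraries left out, the median rise ran from 0.80 to 0.92 in control, 0.82 to 0.95 in nFe3O4 and 0.68 to 0.83 in nZVI. Members called higher at 4 h ran from 13 to 19, 13 to 17 and 14 to 17, and members called against control from 6 to 10 and 6 to 9 at 1 h and from 4 to 6 and 5 to 7 at 4 h, for nFe3O4 and nZVI. These member ranges are over all 17 repeats, and the 13 for nFe3O4 came without nFe3O4 1 h replicate 3, which left 1 library in that group. The next ranges are over all genes, in the repeats that kept 2 libraries of nFe3O4 at 1 h. They cover fewer repeats than the member ranges and are not compared with them. The repeat without nFe3O4 1 h replicate 3 called fewer genes than the nFe3O4 ranges given for higher at 4 h and against control at 1 h. Called higher at 4 h were 543 to 1093 in control, 456 to 705 in nFe3O4 and 680 to 1148 in nZVI. Called against control at 1 h were 2765 to 3583 in nFe3O4 and 4004 to 5177 in nZVI. At 4 h they were 1704 to 2923 and 1369 to 2511. Groups left with 1 library were assumed to vary like the others. DESeq2 called 8 members, in place of 5, between nFe3O4 and control at 4 h, beside 2913 of all genes, in place of 2720. Without replicate 3, a least rise of 0.8 left 3 genes, of which 66.7% were higher at 4 h in the left-out control libraries and 100% in nZVI, in place of 95% and 90%. With control and nZVI exchanged, added after seeing the data, 0 members lay below control throughout in place of 11, and 4 above it in place of 5. No median rise, and no mean rise of a member, changed sign under the alternatives run.

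A block on the replicate number gave 18, 15 and 16 members called higher at 4 h, as without it. Over all 11841 genes that block gave 891, 600 and 930 calls higher at 4 h. Same-numbered libraries of the 2 hours correlated at -0.055 to 0.77. A block on culture and replicate number together, added after seeing the data, gave 21, 21 and 21 members, beside 1736, 1028 and 1446 of all 11841 genes. Between cultures the replicate block gave 9 and 9 members against control at 1 h and 5 and 6 at 4 h. Over all genes it gave 3171 and 4686 at 1 h and 2444 and 2156 at 4 h. Without nFe3O4 replicate 3 at both hours, also added after seeing the data, the median rise in nFe3O4 was 0.90. Depth limits the rarest members, at 66 counts in the lowest library.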
